A study of Cicer arietinum with 12 samples.

Results

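UDP-glycosyltransferases (UGTs) are enzymes that transfer a sugar from a UDP-sugar donor to small molecules such as flavonoids, triterpenoids, phenolic acids, cyanohydrins and plant hormones. The attached sugar generally makes the acceptor more soluble in water and fit for storage in the vacuole, and it can keep a hormone or a defence compound in a stored form that glucosidases later release. Plant UGTs are numbered into families by protein similarity, with letters for subfamilies, and enzymes of a family often, but not always, take acceptors of a related kind. The genes described here were all features of the count files whose identifier is UGT followed by a digit. There were 69 such genes among 27234 features, and they fell into 18 numbered families. Family 73 was the largest with 13 genes, followed by families 79 and 85 with 8 each, family 88 with 7 and family 72 with 6, and 4 families had 1 gene each. A further feature carries a UGT symbol in the reference gene table alone and was not counted.

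RNA from chickpea (Cicer arietinum) leaves, taken at what the labels name the shoot apical meristem stage, was sequenced in 12 libraries. The 4 groups of 3 libraries were ICC8261 under drought, ICC8261 well-watered, ICC283 under drought and ICC283 well-watered. The labels call ICC8261 drought tolerant and ICC283 drought sensitive, and they set drought at 20% and the well-watered control at 80% of the field capacity of the soil. Plants stood in glasshouse pots, 6 per genotype, and each genotype is a single line, so a genotype contrast compares these 2 lines. The labels do not state that each library came from a pot of its own, and p-values then reflect only how these libraries vary, which may be technical. Plant age was not given in the labels.

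The deposited sources disagreed on the treatment of 4 libraries. Reads recovered from the sample columns of the authors' DESeq2 tables equalled 1 count file each at all 27233 shared genes. In ICC8261 the file of drought library 2 stood in the tables as well-watered library 1, and the file of well-watered library 1 as drought library 2. In ICC283 the file of drought library 3 stood in the tables as well-watered library 3, and the file of well-watered library 3 as drought library 3. The values below take the treatment from the table columns, and library numbers are those of the table columns. The main results are also given for the 8 libraries, 2 per group, whose treatment was the same in both sources. With the labels of the count files, edgeR's quasi-likelihood test called 0 UGT genes under drought in either genotype, and 0 of all 18592 genes tested. At an unadjusted p under 0.05 the same test gave 1 UGT gene in ICC8261 and 2 in ICC283, and 386 and 1841 of all genes. Drought calls over 12 libraries therefore rest on the labels of the table columns, while those kept in the 8 agreed libraries rest on labels that both sources share. The 8 are part of the same 12 and are no independent evidence. For scale, the late embryogenesis abundant gene CAPLEA-1 rose by 6.69 ± 0.66 on the log2 scale in ICC8261 under the table labels. In ICC283 it rose by 6.78 ± 0.66. The 8 agreed libraries gave 6.45 ± 0.67 in ICC8261 and 7.40 ± 0.68 in ICC283. By the table labels its depth-scaled read count (CPM) in ICC8261 was 26.5 ± 16.1 under drought and 0.254 ± 0.220 well-watered. In ICC283 it was 34.8 ± 8.38 under drought and 0.301 ± 0.180 well-watered (SD, n = 3 each). At this gene each conflicting library thus lay with its group of the table labels. Which source is right was not tested.

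Between 8910704 and 12192098 reads per library were counted on genes, and between 8180 and 15624 of them, 0.0809% to 0.142%, fell on UGT genes. Between 49 and 61 of the 69 UGT genes had at least 1 read in a library. Reads with more than 1 alignment are not counted, and in the 8 agreed libraries their share was higher under drought. In ICC8261 it was 52.8% and 50.5% under drought, against 46.7% and 44.1% well-watered. For ICC283 the share was 53.4% and 53.5% under drought, against 50.6% and 48.1% well-watered. By the table labels the conflicting libraries had 49.3% under drought and 50.0% well-watered in ICC8261 and 50.5% under drought and 48.5% well-watered in ICC283. The part of this share in the results was not tested. None of 9 leaf, 6 meristem and 5 root or nodule marker symbols was found among the gene names, so the tissue label could not be checked in this way. Of 4 seed marker symbols 2 were found, and they went different ways. The seed storage gene LEG had 5 reads in all 12 libraries together, while CAPLEA-1, which rose under drought, had 1975.

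For 47 of the 69 genes enough reads were present for a test, and the other 22 had between 0 and 85 reads over all 12 libraries, with a median of 11. Of these 22, 7 were in family 73, 4 each in families 79 and 88, 2 each in families 72 and 85, and 1 each in families 74, 78 and 84. Levels are given as CPM, the usual depth-scaled read count, computed here from the scaled library size and listed in the order of libraries 1, 2 and 3. Levels were not divided by gene length, so they are compared between groups and not between genes. A gene is said to have risen or fallen where edgeR's quasi-likelihood test on all 12 libraries gave a Benjamini-Hochberg adjusted p under 0.05 over the 18591 genes tested. Log2 fold changes are given with their standard error (SE). In whole leaves, a smaller share of cells that express a gene and less RNA of it per cell cannot be told apart.

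Under drought, calls among the UGT genes were few and in both directions in ICC8261, and in ICC283 all but 1 were falls. In ICC8261 3 of 47 genes rose and 4 fell, while 9.83% of all genes tested rose and 8.82% fell, 18.7% together. The UGT share called there, 14.9%, was thus no higher than that of all genes. In ICC283 1 of 47 rose and 20 fell, while 16.6% of all genes rose and 20.1% fell, 36.7% together. The 20 falls were 42.6% of the tested UGT genes. The 4 falls in ICC8261 lay in 3 of the 18 families, and the 20 in ICC283 lay in 11. The median log2 fold change of the tested UGT genes was 0.15 in ICC8261, where that of all genes was -0.01, and -0.91 in ICC283, where that of all genes was also -0.01. In ICC8261 27 of the 47 UGT genes had a value above 0, and in ICC283 37 had a value below 0. Of all genes, 49.6% had a value above 0 in ICC8261 and 49.2% in ICC283. Values of the genes not called ran from -2.79 to 0.83 in ICC8261 and from -2.24 to 1.11 in ICC283. The groups did not overlap at 7 of the 7 UGT genes called in ICC8261 and 18 of the 21 called in ICC283, where the same held for 99.1% and 92.6% of all called genes.

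Counted over both genotypes, 5 UGT genes were called in both, 2 in ICC8261 alone, 16 in ICC283 alone and 24 in neither. These were 10.6%, 4.26%, 34% and 51.1% of the tested UGT genes, where all genes gave 12.5%, 6.12%, 24.2% and 57.1%. The 8 agreed libraries, where 49 UGT genes could be tested, gave 4 rises and 2 falls in ICC8261 (9.09% and 6.37% of all genes, 15.5% together) and 3 rises and 19 falls in ICC283 (17.1% and 21.1%, 38.2% together). Shared with the 12-library calls, with the same sign, were 5 genes in ICC8261 and 16 in ICC283. DESeq2, without the filter on low counts set for edgeR, gave 4 rises and 5 falls in ICC8261 (8.32% and 8.2% of all genes). In ICC283 it gave 2 rises and 22 falls (12.5% and 16.7%), with 68 UGT genes in the fit. Its own default filter can leave genes of low mean count without an adjusted p, and such genes stay in these shares. Leaving out single libraries moved the ICC8261 count to 11 without ICC283 well-watered library 3, 22.4% of the UGT genes tested there and 25.5% of all genes. It moved the ICC283 count to 12 without ICC283 drought library 1 (25% of UGT genes, 24.5% of all genes) and to 11 without ICC283 drought library 2 (23.4% and 27.4%). In those fits the UGT share called in either direction was thus no higher, or barely higher, than that of all genes. In every one of the 12 such fits, 4 genes kept their call in ICC8261 and 11 in ICC283. Over the 2 drought contrasts and the 3 described further on, 32 UGT genes were called at least once and 15 never. Neither the kept calls nor these totals were counted over all genes.

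**Figure D1:**
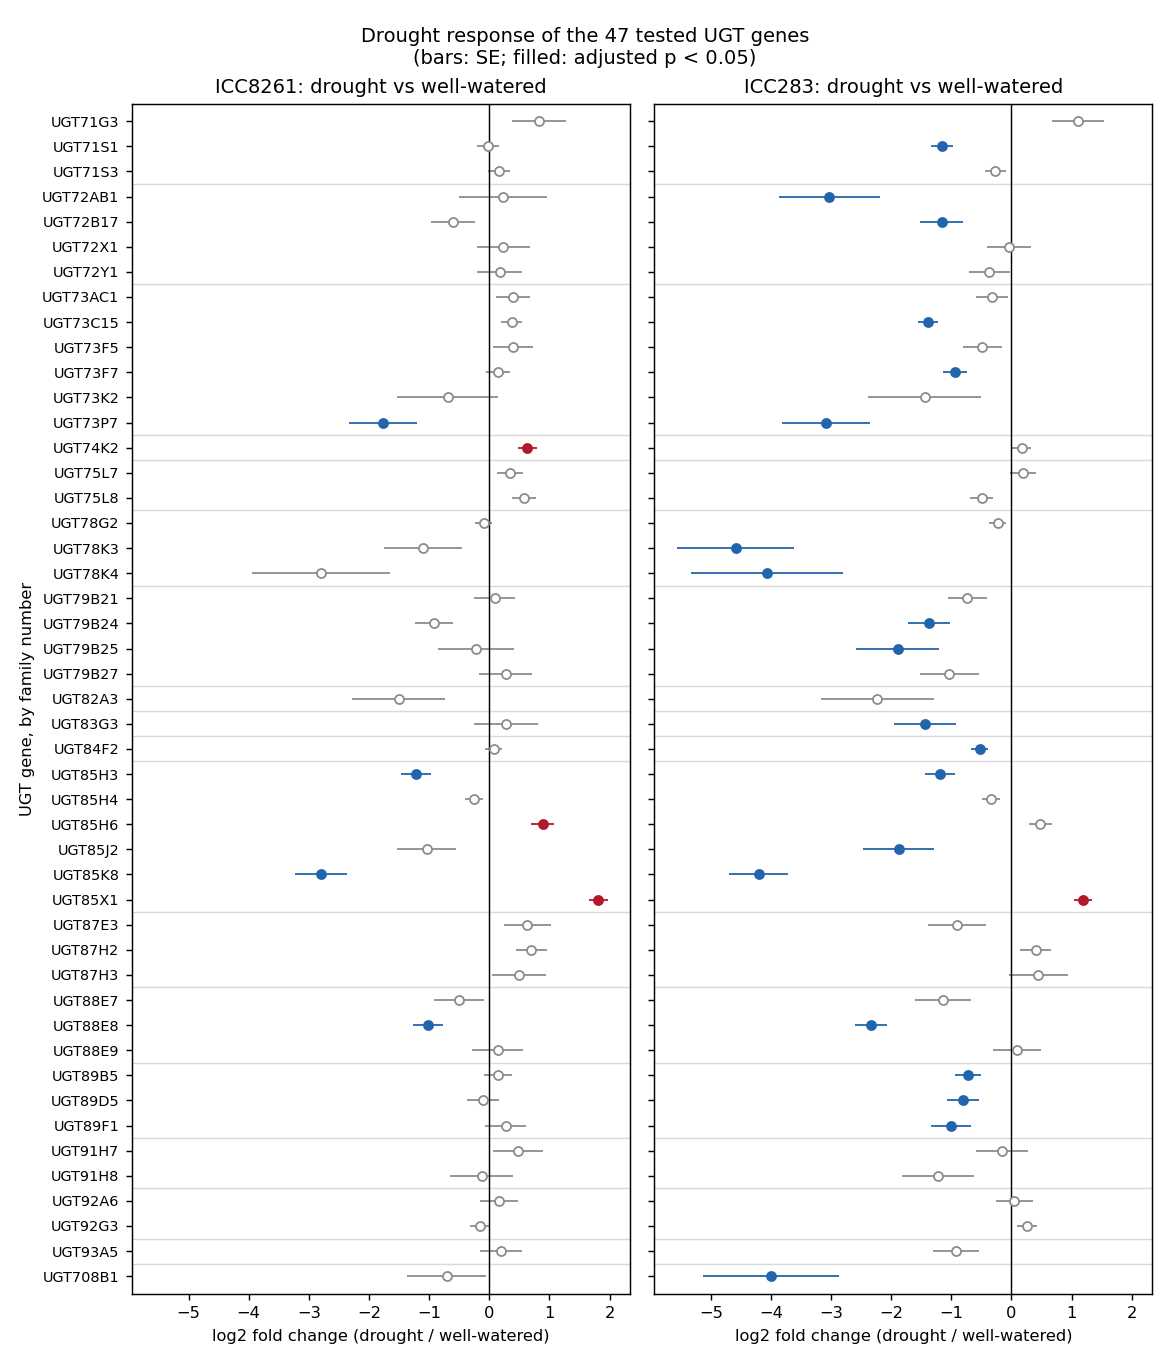
Log2 fold change under drought (drought over well-watered, x axis) of the 47 tested UGT genes, ordered by family, in ICC8261 (left) and ICC283 (right). Bars are the SE and filled points had an adjusted p under 0.05, of which 4 lie below 0 in ICC8261 and 20 in ICC283.

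**Figure D2:**
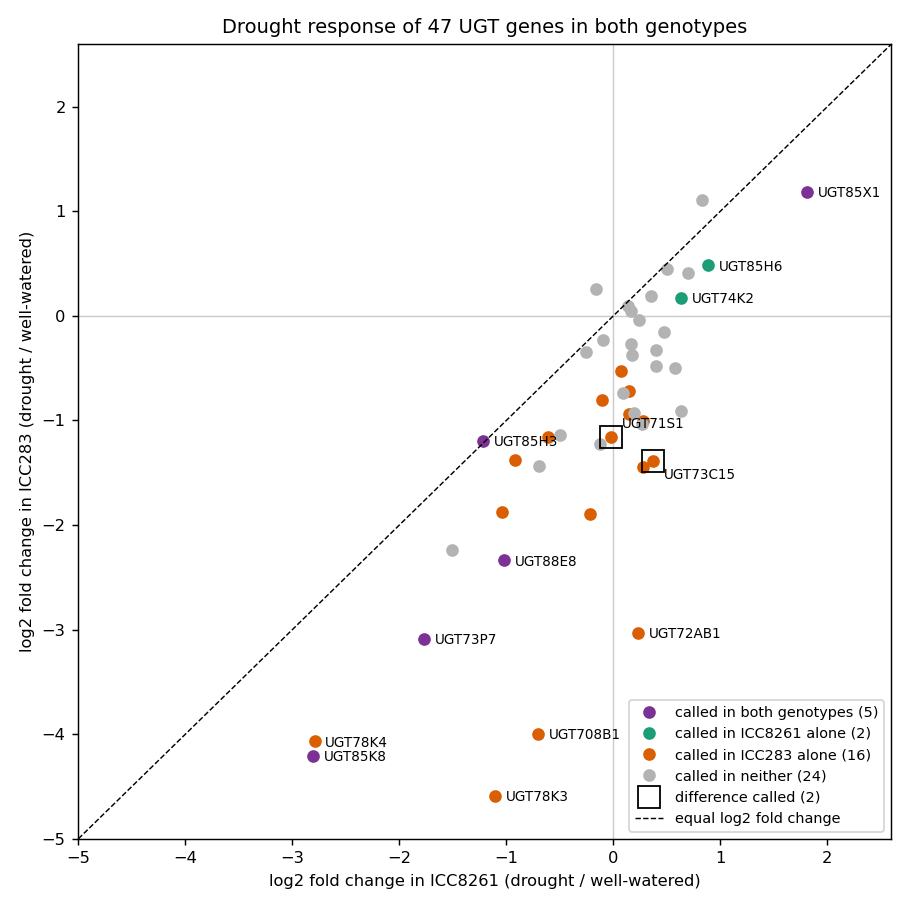
Log2 fold change under drought of the same 47 genes, ICC8261 on the x axis and ICC283 on the y axis, coloured by where the gene was called, with squares for the 2 genes whose drought effects differed. The dashed line marks equal change, and 44 of the 47 points lie below it.

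Family 85 held 3 of the 5 genes that changed in both genotypes, and they went in both directions. Enzymes of this family include those that glucosylate cyanohydrins to cyanogenic glucosides in sorghum, cassava and Lotus, and others that act on cytokinins in Arabidopsis. Of its 8 genes 6 were tested. In ICC8261 2 rose and 2 fell, where 9.83% of all genes rose and 8.82% fell. In ICC283 1 rose and 3 fell, where 16.6% of all genes rose and 20.1% fell. These 6 genes are too few to set against those shares.

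UGT85K8, in the subfamily of the cyanohydrin glucosyltransferases of cassava and Lotus, fell in both genotypes. In ICC8261 it had 3.59, 2.33 and 9.33 CPM under drought, against 37.7, 33.4 and 35.7 CPM well-watered. ICC283 libraries had 1.11, 1.24 and 2.81 CPM under drought, against 20.2, 36.6 and 37.3 CPM well-watered. Every drought library was far below every well-watered one, and ICC8261 drought library 3, a library of agreed treatment, was the highest of the drought libraries. This gave a log2 fold change of -2.80 ± 0.43 in ICC8261 (adjusted p = 0.0015) and -4.20 ± 0.49 in ICC283 (adjusted p = 1.1e-04). Over the 8 agreed libraries the values were -2.38 ± 0.42 and -4.59 ± 0.54, called in both. Its neighbour UGT85K9 had 8 reads in all libraries together and was not tested.

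UGT85X1 rose in both genotypes and was the only UGT gene that rose in ICC283 over 12 libraries. Its levels were 28.9, 23.6 and 23.8 CPM under drought in ICC8261, against 6.95, 6.81 and 7.90 CPM well-watered. In ICC283 the levels were 21.7, 22.2 and 18.3 CPM under drought, against 10.3, 8.70 and 8.34 CPM well-watered. The groups were well apart, with the lowest drought library above the highest well-watered one in both genotypes. The log2 fold change was 1.81 ± 0.15 in ICC8261 (adjusted p = 3.1e-05) and 1.19 ± 0.15 in ICC283 (adjusted p = 1.4e-04). These values were 1.85 ± 0.17 and 1.19 ± 0.17 in the 8 agreed libraries, and the call was kept in all 12 fits that left out a library.

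UGT85H3 and UGT85H6 belong to a subfamily with a Medicago truncatula enzyme that glucosylates flavonoids and isoflavonoids, and they went opposite ways. UGT85H3 had 12.4, 7.92 and 12.3 CPM under drought in ICC8261, against 34.2, 23.8 and 17.9 CPM well-watered. For ICC283 the values were 11.9, 9.05 and 7.79 CPM under drought, against 24.5, 20.9 and 20.4 CPM well-watered. The log2 fold change of UGT85H3 was -1.22 ± 0.25 in ICC8261 (adjusted p = 0.0056) and -1.19 ± 0.25 in ICC283 (adjusted p = 0.003), and the difference of the 2 effects was -0.03 ± 0.35 on the log2 scale (adjusted p = 0.98). Over the 8 agreed libraries the falls were -0.75 ± 0.20 and -1.14 ± 0.20, called in both. UGT85H6 had 93.9, 91.0 and 77.0 CPM under drought in ICC8261, against 61.3, 40.7 and 39.6 CPM well-watered, a log2 fold change of 0.89 ± 0.19 (adjusted p = 0.008; 1.10 ± 0.14 in the 8 agreed libraries). In ICC283 the same gene had 129, 113 and 82.9 CPM under drought and 81.5, 77.1 and 73.7 CPM well-watered. All drought libraries were above all well-watered ones there too, with a log2 fold change of 0.48 ± 0.19 that missed the threshold over 12 libraries (adjusted p = 0.064) and passed it in the 8 agreed ones (0.59 ± 0.14, adjusted p = 0.0081). In the order of genes along the chromosomes of the reference gene table, UGT85H6 and UGT85H3 had 1 other gene between them.

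UGT85J2 fell in ICC283. It had 5.07, 2.75 and 7.68 CPM under drought in ICC8261, against 10.3, 8.47 and 13.1 CPM well-watered. In ICC283 it had 1.01, 0.444 and 2.49 CPM under drought, against 1.95, 6.26 and 5.98 CPM well-watered. The ICC283 groups overlapped, since drought library 3, one of the conflicting libraries, was above well-watered library 1. This gave a log2 fold change of -1.04 ± 0.50 in ICC8261 (adjusted p = 0.16) and -1.88 ± 0.59 in ICC283 (adjusted p = 0.026; -2.51 ± 0.67 in the 8 agreed libraries). The ICC283 call was lost without either of the ICC283 drought libraries 1 and 2 or well-watered libraries 2 and 3, with values between -2.71 and -1.43 over the 12 fits. Summed over its 8 genes, family 85 had 186 ± 12.1 CPM under drought and 189 ± 31.2 CPM well-watered in ICC8261, and 189 ± 30.6 CPM under drought and 204 ± 8.26 CPM well-watered in ICC283 (SD, n = 3 each).

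**Figure D3:**
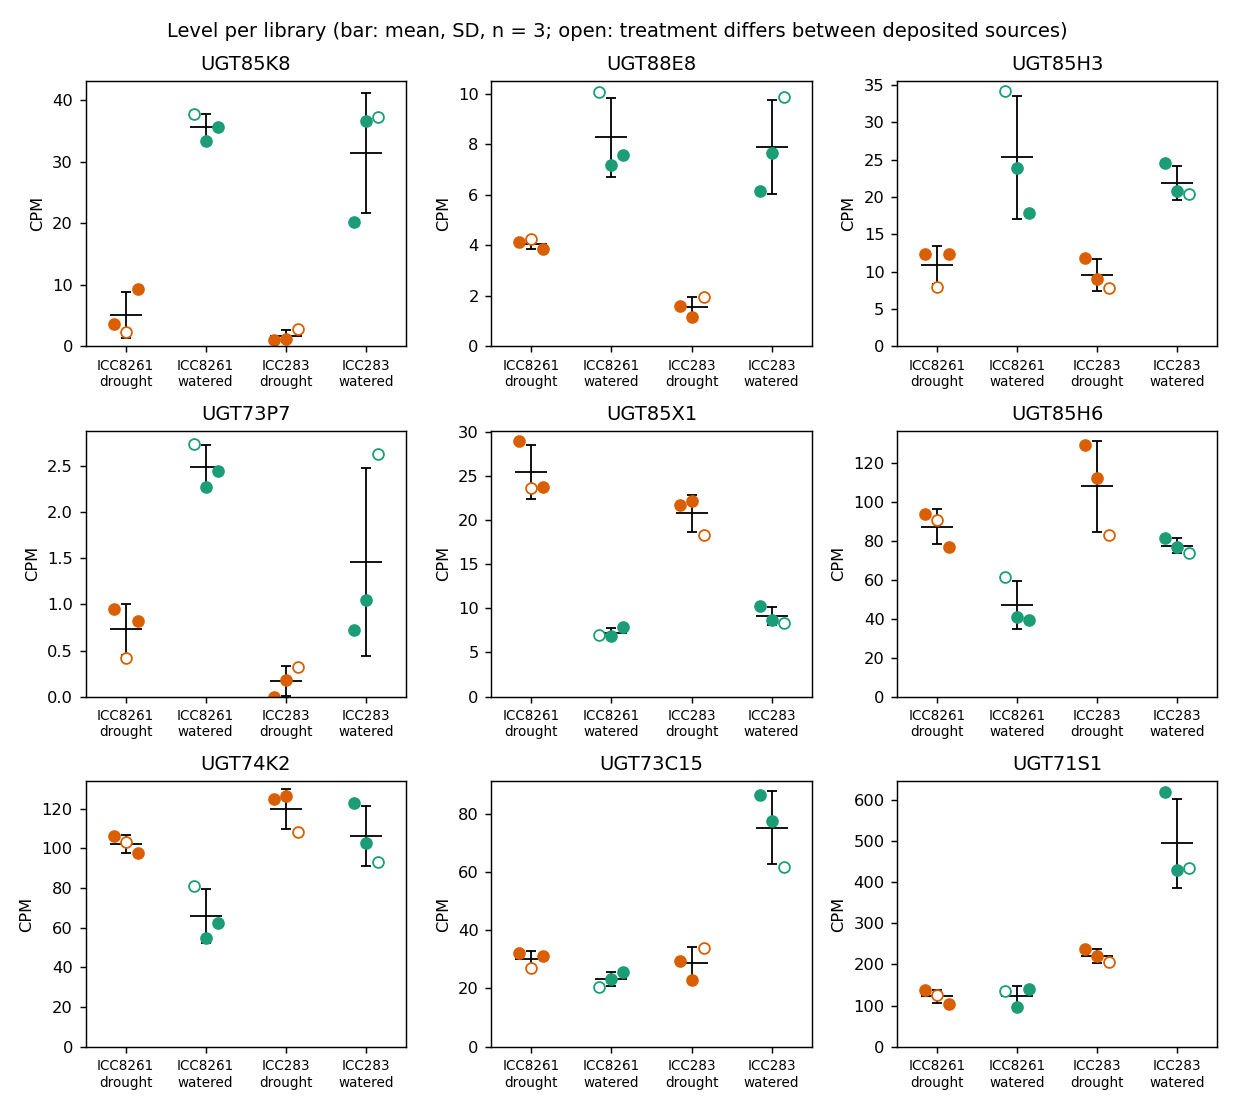
Level in CPM (y axis, from 0) of 9 UGT genes in each library of the 4 groups (x axis), with the mean and SD of 3 libraries as bars and open points for the 4 libraries whose treatment differs between the deposited sources. UGT85K8, UGT88E8, UGT85H3 and UGT73P7 were lower under drought in both genotypes, UGT85X1 was higher in both, and UGT73C15 and UGT71S1 were highest in well-watered ICC283.

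Families 78, 79, 88, 89 and 708 include enzymes that glycosylate flavonoids and isoflavonoids in other plants. This grouping was not set in advance and is not a full list of such families. Families 73 and 85, described apart, also hold genes of flavonoid subfamilies. Of those, UGT73C15 fell in ICC283, UGT85H3 fell in both genotypes and UGT85H6 rose in ICC8261. The pooled counts below therefore describe the grouped families alone. Each grouped family had at least 1 fall in ICC283 over 12 libraries. Family 78 holds flavonoid and anthocyanin glycosyltransferases of Arabidopsis, soybean and Medicago. Family 88 holds isoflavone glucosyltransferases of soybean. Family 79 holds enzymes that extend the sugar chain of flavonoid glycosides, family 89 holds flavonol glycosyltransferases of Arabidopsis, and family 708 holds soybean and buckwheat enzymes that attach a sugar to a carbon atom of a flavonoid. Of their 14 tested genes 1, UGT88E8, fell in ICC8261 and 9 fell in ICC283, where 8.82% and 20.1% of all genes fell. The grouping was made with these data known, so setting its pooled counts against such shares is no test. Over the 8 agreed libraries 0 of them were called lower in ICC8261 and 6 in ICC283 (6.37% and 21.1% of all genes), with none in family 708. DESeq2 called 2 of these 14 lower in ICC8261, and 8.2% of all genes. At an unadjusted p under 0.05 edgeR gave 1 lower there in the 8 agreed libraries, where 6050 of all 18749 genes passed in either direction.

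UGT88E8 is in the subfamily of the soybean isoflavone glucosyltransferases. Under drought it had 4.12, 4.25 and 3.84 CPM in ICC8261, against 10.1, 7.18 and 7.58 CPM well-watered. ICC283 libraries had 1.61, 1.15 and 1.95 CPM under drought, against 6.15, 7.65 and 9.88 CPM well-watered. The drought libraries were below all well-watered ones in both genotypes, and those of ICC283 were below those of ICC8261. The fall was -1.02 ± 0.24 in ICC8261 (adjusted p = 0.013) and -2.34 ± 0.27 in ICC283 (adjusted p = 7.5e-05). The 8 agreed libraries gave -0.88 ± 0.26 in ICC8261, just outside the threshold (adjusted p = 0.0503), and -2.34 ± 0.30 in ICC283 (adjusted p = 4.4e-04). Without ICC8261 well-watered library 1, a library of conflicting treatment, the ICC8261 value also missed the threshold (adjusted p = 0.059). The other 2 tested genes of family 88 were not called, and its 4 untested genes had between 2 and 23 reads in all.

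Falls in families 78 and 708 rest on few reads. UGT78K3 had 6, 2 and 5 reads under drought in ICC8261, against 9, 15 and 9 well-watered. For ICC283 the values were 0, 0 and 1 reads under drought, against 4, 14 and 13 well-watered. UGT708B1 had 2, 8 and 12 reads under drought in ICC8261, against 6, 14 and 21 well-watered, and 0, 0 and 1 reads under drought in ICC283, against 3, 5 and 13 well-watered. Both genes were thus nearly without reads in ICC283 under drought, and the single read of each was in drought library 3, of conflicting treatment. For depth-corrected reads, the ratio of the well-watered sum over the drought sum in ICC283 was 32.1 for UGT78K3 (exact 95% interval 5.35 to 1308) and 21.7 for UGT708B1 (3.50 to 899). These intervals cover counting error only. Both passed the test in ICC283, with adjusted p = 0.0032 for UGT78K3 and adjusted p = 0.015 for UGT708B1. In the 8 agreed libraries UGT78K3 was called (adjusted p = 0.012) and UGT708B1 was just outside the threshold (adjusted p = 0.0506). The call of UGT708B1 was also lost without ICC283 drought library 1 or 2 or well-watered library 3, with an adjusted p of up to 0.058. In ICC8261 the values were -1.11 ± 0.65 for UGT78K3 (adjusted p = 0.25) and -0.70 ± 0.66 for UGT708B1 (adjusted p = 0.48).

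UGT78K4 had 0, 1 and 7 reads under drought in ICC8261, against 27, 12 and 25 well-watered. In ICC283 it had 0, 2 and 2 reads under drought, against 1, 13 and 60 well-watered. In ICC8261 the value was -2.79 ± 1.15 and not called (adjusted p = 0.11), with drought library 3 high among the drought libraries. Most of the ICC283 well-watered reads came from library 3, of conflicting treatment, and library 1 had a single read, so the ICC283 groups overlapped. The fitted fall in ICC283 was -4.07 ± 1.27 (adjusted p = 0.025), and it was -2.93 ± 1.65 and not called in the 8 agreed libraries (adjusted p = 0.19). The call was also lost without ICC283 drought library 1 or 2 or well-watered library 3, with values between -4.62 and -2.49. The well-expressed gene of the family, UGT78G2, is in the subfamily of a Medicago enzyme for flavonoids and isoflavonoids and was not called under drought in either genotype. Its mean level was 61.1 ± 6.09 CPM under drought and 65.3 ± 3.92 CPM well-watered in ICC8261, and 35.1 ± 1.39 CPM under drought and 41.1 ± 6.74 CPM well-watered in ICC283 (SD, n = 3 each).

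In ICC283 2 of 4 tested genes of family 79 and 3 of 3 of family 89 fell over 12 libraries, and 3 and 1 in the 8 agreed ones. Of all genes 20.1% fell over 12 libraries and 21.1% in the 8, and these families are too small to set against those shares. In family 89, UGT89D5, named here after its values were seen, had overlapping groups in ICC283, a log2 fold change of -0.81 ± 0.27 (adjusted p = 0.034) and -0.63 ± 0.35 in the 8 agreed libraries (adjusted p = 0.18), and lost its call in 5 of the 12 fits that left out a library. None of the 7 genes of both families was called in ICC8261, where their log2 fold changes ran from -0.92 to 0.27. UGT79B25 had 0.201, 0.0887 and 1.30 CPM under drought in ICC283, against 2.26, 1.39 and 2.08 CPM well-watered. Drought library 3, of conflicting treatment, stood well above the other two, and the call (log2 fold change -1.89 ± 0.69, adjusted p = 0.0455) was kept in only 1 of the 12 fits that left out a library, with values between -3.65 and -1.35. Over the 8 agreed libraries the values were -3.61 ± 0.78 (adjusted p = 0.0058). UGT89B5 had 7.85, 5.77 and 7.47 CPM under drought in ICC283, against 13.9, 12.4 and 8.43 CPM well-watered, with a log2 fold change of -0.72 ± 0.22 (adjusted p = 0.021; -0.98 ± 0.23 in the 8 agreed libraries). Its call was lost without ICC283 drought library 2 or well-watered library 1 or 2 (values between -0.92 and -0.56). UGT89F1 fell by 1.00 ± 0.34 on the log2 scale in ICC283 (adjusted p = 0.033), with 4.28 ± 0.764 CPM under drought and 8.57 ± 1.40 CPM well-watered (SD, n = 3 each). The 8 agreed libraries gave a value of nearly the same size that missed the threshold (-0.99 ± 0.38, adjusted p = 0.067), and the call was lost in 5 of the 12 fits that left out a library. Summed over family 89, levels in ICC8261 were 13.9 ± 1.34 CPM under drought and 13.0 ± 3.18 CPM well-watered, while in ICC283 they were 14.9 ± 0.506 CPM under drought and 26.5 ± 3.99 CPM well-watered (SD, n = 3 each).

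Enzymes that make the acceptors of these families were looked up by symbol. Of 26 symbols of phenylpropanoid, flavonoid and isoflavonoid synthesis 9 were found and 8 could be tested. In ICC8261 these 8 genes had drought log2 fold changes from -0.63 (CYP81E3) to 0.99 (CYP93C3), with adjusted p of 0.12 or more, and 0 were called. In ICC283 3 of the 8 fell and 0 rose, where 20.1% of all genes fell and 16.6% rose. A list of 8 genes is too short to set this count against those shares. PAL, phenylalanine ammonia-lyase, which opens phenylpropanoid synthesis, had 29.3 ± 8.94 CPM under drought and 77.2 ± 17.3 CPM well-watered in ICC283 (SD, n = 3 each), and its log2 fold change was -1.40 ± 0.26 (adjusted p = 0.0016). CYP73, the cinnamate hydroxylase of the next step, had -0.98 ± 0.23 (adjusted p = 0.006). IFR, isoflavone reductase, which acts late in the synthesis of chickpea pterocarpans, had -1.79 ± 0.50 (adjusted p = 0.016). All 3 were also called in the 8 agreed libraries. The 5 others, chalcone synthase CHS, the isoflavone synthase CYP93C3 and the isoflavone hydroxylase symbols CYP81E3, CYP81E4 and CYP81E5, were not called in ICC283. No symbol was found for 8 enzymes of UDP-sugar supply or for 3 beta-glucosidase names.

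Family 73 was the largest, with 13 genes of which 6 were tested. It includes enzymes that build the sugar chains of soyasaponins, which are triterpenoids of soybean and Medicago, and others that act on flavonols and brassinosteroids in Arabidopsis. In ICC283 3 of the 6 fell under drought and the median log2 fold change was -1.16. In ICC8261 1 fell and the median was 0.26. Of all genes 20.1% fell in ICC283 and 8.82% in ICC8261, and 6 genes are too few to set against those shares. The family sum in ICC8261 was 67.9 ± 5.47 CPM under drought and 58.5 ± 4.22 CPM well-watered. In ICC283 it was 58.7 ± 6.28 CPM under drought and 123 ± 20.6 CPM well-watered (SD, n = 3 each), so the sum of well-watered ICC283 stood apart. UGT73C15 alone had 28.7 ± 5.43 CPM of this under drought and 75.1 ± 12.6 CPM well-watered in ICC283. Of the tested genes, UGT73C15, UGT73F7, UGT73AC1 and UGT73F5 had their highest mean in well-watered ICC283. UGT73K2 and UGT73P7 had theirs in well-watered ICC8261.

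UGT73C15 belongs to the subfamily of the Arabidopsis brassinosteroid and flavonol enzymes. It had 32.3, 27.1 and 31.0 CPM under drought in ICC8261, against 20.7, 23.3 and 25.7 CPM well-watered. ICC283 libraries had 29.5, 23.0 and 33.8 CPM under drought, against 86.5, 77.3 and 61.6 CPM well-watered. The drought levels of the genotypes overlapped, and the well-watered ICC283 libraries were above every other library. The log2 fold change was 0.37 ± 0.17 in ICC8261 (adjusted p = 0.14) and -1.39 ± 0.17 in ICC283 (adjusted p = 1.1e-04). In the 8 agreed libraries the ICC283 fall was -1.66 ± 0.15, and the call was kept in all 12 fits that left out a library. UGT73F7, in a subfamily of soybean saponin enzymes, had 23.9, 21.5 and 20.2 CPM under drought in ICC8261 and 22.9, 16.4 and 20.0 CPM well-watered, and these groups overlapped. ICC283 had 12.9, 11.1 and 15.3 CPM under drought, against 32.4, 20.1 and 22.4 CPM well-watered, with a log2 fold change of -0.93 ± 0.20 (adjusted p = 0.0032; -1.16 ± 0.24 in the 8 agreed libraries).

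UGT73P7, in the subfamily of a soybean soyasaponin galactosyltransferase, was low and fell in both genotypes. It had 9, 5 and 9 reads under drought in ICC8261, against 30, 30 and 31 well-watered. For ICC283 the values were 0, 2 and 3 reads under drought, against 7, 9 and 29 well-watered. No drought library reached any well-watered one of its genotype. This gave a log2 fold change of -1.77 ± 0.57 in ICC8261 (adjusted p = 0.0454) and -3.09 ± 0.74 in ICC283 (adjusted p = 0.0061). Over the 8 agreed libraries it was -1.39 ± 0.56 and not called in ICC8261 (adjusted p = 0.12) and -3.09 ± 0.88 in ICC283 (adjusted p = 0.021). The ICC8261 call was kept in 4 of the 12 fits that left out a library, with values between -1.97 and -1.48. UGT73P9 of the same subfamily was too low for the test over 12 libraries, with 7, 10 and 9 reads under drought in ICC8261, against 3, 3 and 2 well-watered, and 13, 14 and 8 reads under drought in ICC283, against 1, 2 and 1 well-watered. All of its drought libraries had more reads than all of its well-watered ones. It could be tested in the 8 agreed libraries, where ICC8261 gave 1.97 ± 0.71 (adjusted p = 0.089) and ICC283 gave 2.85 ± 0.74 (adjusted p = 0.014). DESeq2 over all 12 libraries gave 1.87 ± 0.77 in ICC8261 (adjusted p = 0.067) and 3.05 ± 0.91 in ICC283 (adjusted p = 0.0042). UGT73P7 and UGT73P9 had opposite signs in both genotypes.

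Families 71, 74, 75 and 84 include Arabidopsis enzymes that act on hormones and phenolic acids, such as abscisic acid in family 71, salicylate and auxin precursors in family 74 and hydroxycinnamates and auxin in family 84. UGT71S1 took between 13.3% and 17.3% of the UGT reads of an ICC8261 library, between 23.2% and 24.1% in ICC283 under drought and between 32.7% and 38.6% in well-watered ICC283. Its level was 137, 125 and 104 CPM under drought in ICC8261, against 137, 97.3 and 140 CPM well-watered, with overlapping groups. In ICC283 it was 238, 220 and 205 CPM under drought, against 619, 429 and 435 CPM well-watered. The ICC283 libraries were all above those of ICC8261, and the well-watered ones of ICC283 were the highest. The log2 fold change was -0.02 ± 0.18 in ICC8261 (adjusted p = 0.94) and -1.16 ± 0.19 in ICC283 (adjusted p = 5.4e-04; -1.21 ± 0.23 in the 8 agreed libraries). UGT71S3 of the same subfamily was not called under drought, with 72.5 ± 17.9 CPM under drought and 64.8 ± 4.34 CPM well-watered in ICC8261, and 80.1 ± 2.06 CPM under drought and 96.7 ± 15.7 CPM well-watered in ICC283 (SD, n = 3 each).

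UGT74K2 rose in ICC8261. It had 106, 103 and 97.4 CPM under drought in ICC8261, against 81.1, 54.6 and 62.6 CPM well-watered. In ICC283 it had 125, 126 and 108 CPM under drought and 123, 103 and 93.0 CPM well-watered, and these groups overlapped. The log2 fold change in ICC8261 was 0.63 ± 0.16 (adjusted p = 0.017; 0.81 ± 0.13 in the 8 agreed libraries), and it missed the threshold without ICC8261 drought library 1 or 2 or well-watered library 2 or 3 (values between 0.51 and 0.82). UGT74X1, the other gene of the family, had no read in any library. UGT84F2 had 123, 109 and 97.9 CPM under drought in ICC8261 and 111, 94.4 and 108 CPM well-watered. ICC283 libraries had 91.0, 91.7 and 96.4 CPM under drought, against 147, 145 and 112 CPM well-watered, with a log2 fold change of -0.53 ± 0.14 (adjusted p = 0.011; -0.69 ± 0.14 in the 8 agreed libraries). Neither tested gene of family 75 was called under drought over 12 libraries. UGT75L8 had 18.6, 18.1 and 13.2 CPM under drought in ICC8261 and 14.4, 8.32 and 10.7 CPM well-watered, a log2 fold change of 0.58 ± 0.20 (adjusted p = 0.055) that passed the threshold in the 8 agreed libraries (0.75 ± 0.20, adjusted p = 0.032). In ICC283 its value was -0.50 ± 0.19 (adjusted p = 0.054).

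Family 72 includes Arabidopsis enzymes that glucosylate lignin precursors. Of its 4 tested genes 2 fell in ICC283, where 20.1% of all genes fell, and 4 genes are too few to set against that share. UGT72AB1 had 15, 2 and 8 reads under drought in ICC8261, against 8, 4 and 13 well-watered. For ICC283 the values were 1, 1 and 4 reads under drought, against 18, 21 and 10 well-watered. The ICC8261 groups overlapped and those of ICC283 did not. This gave a log2 fold change of 0.23 ± 0.73 in ICC8261 (adjusted p = 0.85) and -3.03 ± 0.84 in ICC283 (adjusted p = 0.014; -4.36 ± 0.89 in the 8 agreed libraries). The ICC283 call was lost without drought library 1 or 2, with values between -4.02 and -2.65. UGT83G3 fell in ICC283, with 5.94, 8.07 and 5.08 CPM under drought, against 31.2, 12.1 and 8.88 CPM well-watered. Its well-watered library 1 stood far above the others, and the call (log2 fold change -1.44 ± 0.51, adjusted p = 0.0453) was kept neither in the 8 agreed libraries (-1.65 ± 0.70, adjusted p = 0.11) nor in 8 of the 12 fits that left out a library.

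Families 82, 87, 91, 92 and 93 had no gene called under drought in either genotype over 12 libraries, with 9 genes tested. At an unadjusted p under 0.05 edgeR gave 1 of them in ICC8261 and 2 in ICC283, and 6338 and 8810 of all 18591 genes. DESeq2 called 0 and 1 of them, and 16.5% and 29.2% of all genes. UGT82A3 had 6, 6 and 11 reads under drought in ICC8261, against 8, 32 and 37 well-watered. In ICC283 it had 0, 0 and 8 reads under drought, against 13, 15 and 10 well-watered. All ICC283 drought reads were in library 3, of conflicting treatment. Over 12 libraries the ICC283 value was -2.24 ± 0.94 (adjusted p = 0.077), and it passed the threshold in the 8 agreed libraries (adjusted p = 0.0015), where the drought libraries had no read of it. The summed level of the 2 genes of family 92 was 23.5 ± 2.84 CPM under drought and 25.3 ± 5.18 CPM well-watered in ICC8261 and 29.2 ± 1.40 CPM under drought and 25.2 ± 3.42 CPM well-watered in ICC283 (SD, n = 3 each). In family 87, with the UGT87A2 of Arabidopsis that acts on flowering time, the 3 genes summed to 12.4 ± 1.13 CPM under drought and 7.83 ± 0.221 CPM well-watered in ICC8261, and to 10.4 ± 1.58 CPM under drought and 8.24 ± 1.34 CPM well-watered in ICC283 (SD, n = 3 each). Family 93, related to the zeatin O-glycosyltransferases of bean, had 1 gene, with 4.67 ± 1.92 CPM under drought and 4.08 ± 0.323 CPM well-watered in ICC8261, and 2.02 ± 0.971 CPM under drought and 3.80 ± 1.13 CPM well-watered in ICC283 (SD, n = 3 each). The ICC283 value of this gene, UGT93A5, missed the threshold over 12 libraries (adjusted p = 0.074) and passed it in the 8 agreed ones (adjusted p = 0.03).

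Whether drought acted differently in the 2 genotypes was tested by the difference of the log2 fold changes, ICC8261 minus ICC283. Of the 47 genes 2 had a called difference, both above 0, where 1.6% of all genes were called above 0 and 0.979% below, 2.58% together. No UGT gene was called below 0 by edgeR or by DESeq2, which called 6 above 0 (3.28% of all genes, with 1.85% below). At an unadjusted p under 0.05 edgeR gave 14 above and 0 below, and 3686 of all 18591 genes in either direction. The difference of UGT73C15 was 1.76 ± 0.24 (adjusted p = 0.007), with 0.37 ± 0.17 in ICC8261 and -1.39 ± 0.17 in ICC283, and it was kept in all 12 fits that left out a library. The difference of UGT71S1 was 1.14 ± 0.26 (adjusted p = 0.042), with -0.02 ± 0.18 in ICC8261 and -1.16 ± 0.19 in ICC283, and it was kept in 3 of the 12. The values of UGT71S1 over these fits were between 0.95 and 1.25, with adjusted p up to 0.11. In the 8 agreed libraries the differences were 2.04 ± 0.21 and 1.25 ± 0.32, both called.

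Of the 47 UGT genes 44 had a difference above 0, with a median of 0.73, where 54.8% of all genes were above 0 with a median of 0.07. The drought values of 19 genes were below 0 in both genotypes and those of 9 were above 0 in both. For 18 genes the value was above 0 in ICC8261 and below 0 in ICC283, and for 1 gene the reverse held. The 8 agreed libraries called 11 differences, all above 0, of 49 tested, where 7.88% of all genes were called above 0 and 4.68% below, 12.6% together. Leaving out ICC283 drought library 3 gave 6 calls (12.2% of UGT genes, 4.85% of all genes) and leaving out ICC283 well-watered library 3 gave 7 (14.3% and 12.1%), both libraries of conflicting treatment, and 8 of the other 10 such fits gave 1. Those 8 left out ICC8261 drought library 1 or 2, ICC8261 well-watered library 2 or 3, ICC283 drought library 1 or 2, or ICC283 well-watered library 1 or 2, and the fit without ICC8261 drought library 3 gave 3. Both drought contrasts enter the difference, so these signs are no evidence beyond the contrasts themselves.

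Summed over all 69 genes, UGT levels in ICC8261 were 923, 831 and 788 CPM under drought, against 871, 701 and 806 CPM well-watered, and these groups overlapped. In ICC283 they were 987, 938 and 885 CPM under drought, against 1603, 1312 and 1260 CPM well-watered, with every drought library below every well-watered one. Without UGT71S1 the ICC283 sums were 749, 718 and 680 CPM under drought, against 983, 883 and 825 CPM well-watered, and these groups did not overlap.

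The genotypes were next compared within each treatment, ICC8261 over ICC283. These contrasts use the same libraries as the drought contrasts, so they are not separate evidence. In drought-stressed leaves 6 of 47 UGT genes were higher in ICC8261 and 2 lower, where 6.19% of all genes were higher and 4.1% lower, 10.3% together. In well-watered leaves 1 was higher and 14 were lower, where 5.12% of all genes were higher and 7.55% lower, 12.7% together. The median log2 fold change was 0.24 under drought and -0.34 well-watered, where those of all genes were 0.01 and 0.00. The 14 lower genes of well-watered leaves lay in 9 families. The groups did not overlap at 8 of the 8 UGT genes called under drought and 15 of the 15 called well-watered, where the same held for 98.5% and 96.6% of all called genes.

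In the 8 agreed libraries 13 of 49 genes were higher and 3 lower under drought, where 10.9% and 8.05% of all genes were called, 18.9% together. Well-watered, 1 was higher and 13 lower there, where 11.3% and 15.4% of all genes were called, 26.6% together. The UGT share called well-watered, 28.6%, was thus barely higher than that of all genes. With the labels of the count files 0 UGT genes were called under drought (0.608% of all genes) and 1 well-watered (0.527%). At an unadjusted p under 0.05 edgeR gave 11 and 14 UGT genes with those labels, and 2076 and 2786 of all 18592 genes. The drought count moved to 4 without ICC8261 drought library 3 (4.11% of all genes) and to 3, 4 and 13 without ICC283 drought libraries 1, 2 and 3 (3.55%, 3.32% and 12.8%). The well-watered count moved to 6 without ICC283 well-watered library 1 (12.5% of UGT genes, 4.79% of all genes). Omitting ICC8261 well-watered library 1, 2 or 3 gave 9, 6 or 8 (18.4%, 12.2% or 16.3% of UGT genes, 7.37%, 3.69% or 5.37% of all genes). Without ICC283 well-watered library 3, of conflicting treatment, the count was 16, and the UGT share of 32.7% was little above the 28.8% of all genes.

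**Figure D4:**
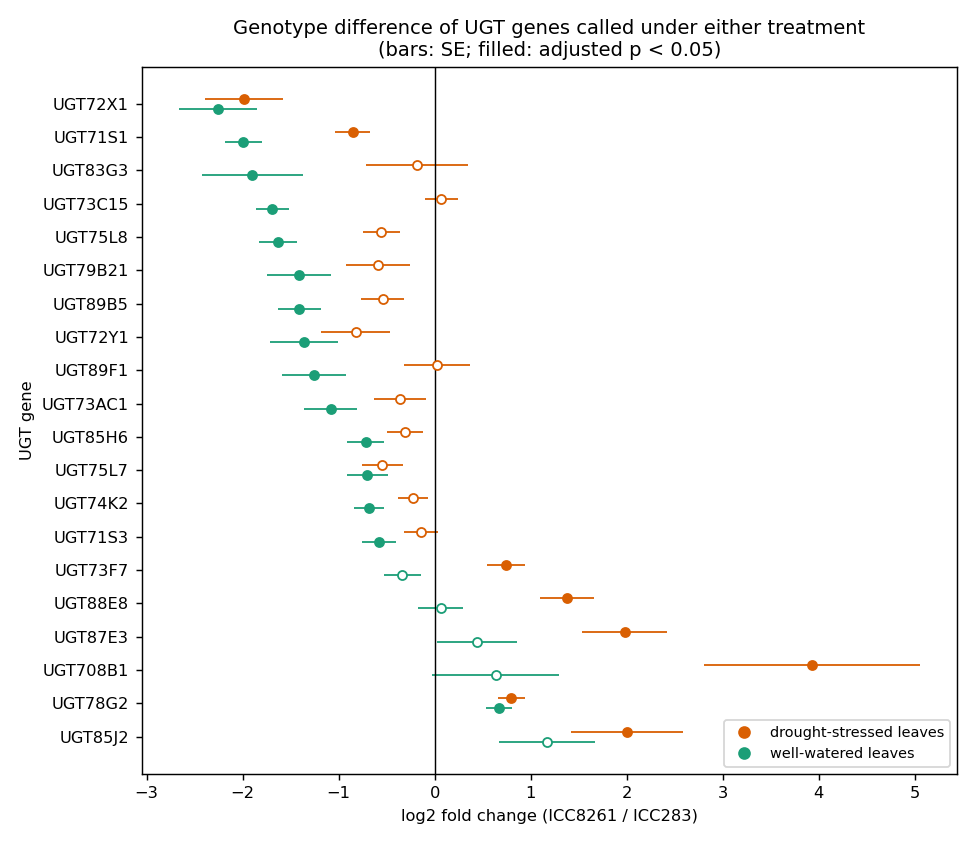
Log2 fold change of ICC8261 over ICC283 (x axis) for the 20 UGT genes called in drought-stressed (orange) or well-watered leaves (green). Bars are the SE and filled points had an adjusted p under 0.05, with 6 of the 8 filled orange points above 0 and 14 of the 15 filled green points below 0.

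The genes called under both treatments were 3 in number. UGT72X1, of the family with the lignin precursor enzymes, had 3.17, 1.33 and 1.46 CPM in ICC8261 under drought, against 7.85, 9.67 and 5.73 CPM in ICC283 under drought. Well-watered it had 1.55, 0.832 and 2.61 CPM in ICC8261, against 9.95, 6.96 and 7.07 CPM in ICC283. Each ICC8261 library was below each ICC283 library of its treatment. The log2 fold change was -1.98 ± 0.41 under drought (adjusted p = 0.01) and -2.26 ± 0.41 well-watered (adjusted p = 0.0051). The 8 agreed libraries gave -1.94 ± 0.50 and -2.34 ± 0.50, and both calls were kept in all 12 fits that left out a library. UGT78G2 was higher in ICC8261 in either treatment, with log2 fold changes of 0.80 ± 0.14 under drought (adjusted p = 0.0044) and 0.67 ± 0.14 well-watered (adjusted p = 0.0098). Its lowest ICC8261 library was above its highest ICC283 library, and it too kept both calls in all 12 fits. With the labels of the count files, which differ in treatment and not in genotype, UGT72X1 had -1.99 and -2.24, and UGT78G2 had 0.72 and 0.75. UGT71S1 was lower in ICC8261 in either treatment, with log2 fold changes of -0.85 ± 0.19 under drought (adjusted p = 0.013) and -1.99 ± 0.19 well-watered (adjusted p = 7.6e-05). Its drought call was lost without ICC8261 drought library 3 or ICC283 drought library 1.

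Among genes called under drought alone, UGT88E8 was higher in ICC8261, with a log2 fold change of 1.38 ± 0.28 (adjusted p = 0.0093), while its well-watered value was 0.06 ± 0.24 (adjusted p = 0.88). UGT73F7 was higher, with 0.74 ± 0.20 (adjusted p = 0.033) and so was UGT85J2, with 2.00 ± 0.58 (adjusted p = 0.0487). All 3 were called in the 8 agreed libraries. UGT87E3 had 16, 19 and 16 reads in ICC8261 under drought, against 3, 6 and 3 reads in ICC283 under drought, a log2 fold change of 1.98 ± 0.44 (adjusted p = 0.015) that was just outside the threshold in the 8 agreed libraries (adjusted p = 0.058). UGT708B1 had 22 reads in ICC8261 under drought, against 1 in ICC283 under drought, a depth-corrected ratio of 20.7 (exact 95% interval 3.34 to 853; adjusted p = 0.043). The calls of UGT73F7, UGT85J2 and UGT708B1 were kept in 7, 3 and 5 of the 12 fits that left out a library. Of the 8 synthesis genes 1 was higher and 1 lower in ICC8261 in each treatment. CHS, chalcone synthase, which makes the flavonoid backbone, was higher, with log2 fold changes of 1.95 ± 0.27 under drought (adjusted p = 0.0013) and 1.08 ± 0.26 well-watered (adjusted p = 0.022). The well-watered call of CHS was not kept in the 8 agreed libraries (adjusted p = 0.095). CYP81E5 was lower, with -0.88 ± 0.24 under drought (adjusted p = 0.033) and -0.93 ± 0.24 well-watered (adjusted p = 0.025), both kept in the 8 agreed libraries.

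Among genes called well-watered alone, UGT73C15 had a log2 fold change of 0.07 ± 0.17 under drought (adjusted p = 0.84) and was lower in ICC8261 well-watered, with -1.69 ± 0.17 (adjusted p = 1.4e-04). UGT75L8 had 14.4, 8.32 and 10.7 CPM in well-watered ICC8261, against 33.7, 31.8 and 37.8 CPM in well-watered ICC283, a log2 fold change of -1.63 ± 0.20 (adjusted p = 6.0e-04). UGT89B5 had 3.84, 4.31 and 4.90 CPM in well-watered ICC8261, against 13.9, 12.4 and 8.43 CPM in well-watered ICC283, a log2 fold change of -1.41 ± 0.22 (adjusted p = 0.0028). These 3 genes kept the well-watered call in the 8 agreed libraries and in all 12 fits that left out a library. UGT79B21, UGT72Y1, UGT73AC1, UGT85H6, UGT74K2 and UGT71S3 were also lower in well-watered ICC8261, with log2 fold changes from -1.41 (UGT79B21) to -0.58 (UGT71S3), and all 6 were called in the 8 agreed libraries. Each of these 6 lost the call in at least 3 of the 12 fits that left out a library. UGT83G3 (-1.90 ± 0.52) and UGT89F1 (-1.25 ± 0.34) were called lower over 12 libraries. In the 8 agreed ones they had -2.22 ± 0.72 and -0.96 ± 0.38 and missed the threshold (adjusted p = 0.067 and 0.087).

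By gene order in the reference table, 67 of the 69 genes could be placed and 29 of them lay in 12 runs, with at most 1 other gene between neighbours and at most 4 genes in a run. UGT85H6 and UGT85H3 had opposite signs in both genotypes, as given above. UGT88E8 and its direct neighbour UGT88E7 both had values below 0, and UGT88E7, with -0.50 ± 0.41 in ICC8261 and -1.14 ± 0.47 in ICC283, was not called (adjusted p = 0.42 and 0.073). In the run of 4 family 79 genes the 2 tested ones both fell in ICC283. Whether close copies lost reads because alignments were not unique was not tested, and the labels do not say whether counting used strand.

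The authors' deposited DESeq2 tables, which hold 1 genotype each, gave an adjusted p under 0.05 for 4 UGT genes higher and 7 lower under drought in ICC8261, of 52 with a value, and 2 higher and 18 lower in ICC283, of 54. The authors' deposited edgeR lists held 5 higher and 5 lower UGT genes in ICC8261 and 2 higher and 11 lower in ICC283. Of all genes these lists held 5215 in ICC8261 and 4602 in ICC283. Calls in the deposited DESeq2 tables were not counted over all genes, so those UGT counts have no share beside them. For UGT85K8 the authors' deposited DESeq2 table has log2 fold changes of -2.15 in ICC8261 and -3.90 in ICC283, and for UGT85X1 it has 1.75 and 1.14. For UGT73P9, which the filter for edgeR left out over 12 libraries, the authors' deposited DESeq2 table has 1.06 in ICC8261 (adjusted p = 0.12) and 2.01 in ICC283 (adjusted p = 0.014).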

How the data were processed

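Leaf RNA was sequenced as paired 150-base reads, per the labels. The submitters' processing notes name HTSeq, edgeR, DESeq2, Cufflinks 2.0.2, TopHat2 2.1.1 and Trimmomatic, without roles or order. The genome build, the annotation and the use of strand in counting were not given in the sources used here. For each library the authors deposited raw read counts per gene, with 5 HTSeq summary lines that were kept out of all totals. The authors also deposited DESeq2 tables whose sample columns hold a normalised signal, counts divided by a size factor per library, and whose other columns hold log2 fold changes and p-values. The authors' deposited edgeR lists hold log2 fold changes, p-values and FDR.

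Whole reads were recovered from the table columns and set against the count files, with a tolerance of 0.02 for whole multiples. All 12 table columns matched a label. Treatment was taken from these columns. The comparisons were fitted with edgeR 4.0.16 in R 4.3.3 on all 12 libraries with 4 group means: filterByExpr (minimum count 10, total 15), TMM scaling, a robust quasi-likelihood fit, two-sided tests and Benjamini-Hochberg adjustment at 0.05 over all genes tested. Every adjusted p not credited to the authors is from this test, or from DESeq2 1.42.0 where named. The steps were tested on simulated data. Alternatives were the 8 libraries of agreed treatment, the count-file labels, DESeq2, 2 other scalings, no filter, a replicate block and leaving out each library. Exact intervals and read totals cover counting error only. Gene names and neighbours came from a RefSeq gene table of assembly Cicar.CDCFrontier_v2.0, matched at 24445 of 27233 features. Coordinates, sequences and gene lengths were not used here.

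UGT genes are named with values where they were called in a contrast, up to the 10 largest changes in each direction, where the drought effects differed, where they were among the 5 highest mean levels, or as examples (UGT73P9, UGT82A3 and UGT72AB1). UGT85K9, UGT88E7, UGT89D5 and UGT93A5 are given beyond that rule and were chosen after their values were seen, as was UGT74X1. The members, the gene lists and this rule were chosen with earlier results of these data known.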

Additional observations from a re-analysis of the deposited data

Results flagged for a closer look

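The effect of drought differed between the genotypes at UGT73C15 and UGT71S1 by the test of the difference itself (edgeR's quasi-likelihood test, Benjamini-Hochberg adjusted p = 0.007 and 0.042). The difference, ICC8261 minus ICC283 on the log2 scale, was 1.76 for UGT73C15, with 0.37 ± 0.17 in ICC8261 and -1.39 ± 0.17 in ICC283. For UGT71S1 it was 1.14, with -0.02 ± 0.18 in ICC8261 and -1.16 ± 0.19 in ICC283. The difference of UGT71S1 kept its call in 3 of the 12 fits that left out a library, namely those without ICC8261 drought library 3, ICC283 drought library 3 or ICC283 well-watered library 3.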

How the results depend on the processing

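Counts of called UGT genes are given for 5 contrasts in the order drought in ICC8261, drought in ICC283, the difference of these effects, genotype under drought and genotype well-watered. The 12-library counts were 7, 21, 2, 8 and 15 of 47 tested (18.7%, 36.7%, 2.58%, 10.3% and 12.7% of all genes). With the labels of the count files they were 0, 0, 0, 0 and 1. At an unadjusted p under 0.05 edgeR gave 1, 2, 3, 11 and 14 there, and 386, 1841, 634, 2076 and 2786 of all 18592 genes. With the same labels 4 log2 fold changes had the opposite sign: 0.25 for UGT85H3 in ICC8261, and 0.26 for UGT708B1, 0.44 for UGT73P7 and 1.63 for UGT78K4 in ICC283. These labels exchange the treatment of 4 libraries. The 8 agreed libraries gave 6, 22, 11, 16 and 14 of 49 tested (15.5%, 38.2%, 12.6%, 18.9% and 26.6% of all genes). DESeq2 gave 9, 24, 6, 11 and 15 of 68 (16.5%, 29.2%, 5.13%, 11.2% and 12.4% of all genes). With a replicate block the counts were 9, 23, 4, 10 and 14, and calls of that fit were not counted over all genes. The main fit did not pair libraries by number, and whether the numbers mark pairs was not settled. Of 18 same-number pairs 9 correlated above 0.1 (r from -0.123 to 0.433), and 9 of 18 correlated best with their own number. Leaving out single libraries gave ranges of 5 to 11, 11 to 23, 1 to 7, 3 to 13 and 6 to 16. The shares of all genes called moved as well, over ranges of 7.99% to 25.5%, 24.5% to 37.3%, 0.29% to 12.1%, 3.32% to 16% and 3.69% to 28.8%. RLE and upper-quartile scaling and no filter moved no count by more than 1.5 times. Of 49 called results of named genes, DESeq2, RLE scaling and the block kept all 49, upper-quartile scaling 48, no filter 44 and the 8 agreed libraries 40, and 23 were called in every fit that left out a library. The cause of each change was not tested. Levels per length of coding sequence were planned and not run. Few reads limit UGT78K3, UGT78K4, UGT708B1, UGT73P7 and UGT72AB1, so their sizes are loosely set.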
